A study of Homo sapiens with 6 samples.

Results

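Histone modifying enzymes and SWI/SNF chromatin remodelers were examined in SY5Y cells, a human neuroblastoma line, with and without overexpression of DLX5. The genes were chosen by name: protein-coding genes called HDAC, SIRT, KDM, KMT2 or KMT5, SETD, SMARC, ARID1A or ARID1B, PBRM1, EZH1 or EZH2, EED, SUZ12, CBX or DOT1L with their family numbers, with 1 lysine demethylase gene of the same naming pattern left out by the rule. This gave 80 of the 58735 genes of the count table, of which 19951 are protein-coding. The 80 are 11 zinc-dependent deacetylases, 7 sirtuins, 17 lysine demethylases, 18 lysine methyltransferases, the 4 core genes of Polycomb repressive complex 2 (PRC2), 8 CBX chromodomain genes and 15 chromatin remodeler genes. RNA-seq covered 3 libraries of SY5Y cells that overexpressed DLX5, a homeobox transcription factor, and 3 libraries of SY5Y cells labelled as controls. The labels name no vector, no promoter and no time after overexpression, and they do not say whether the libraries of a group came from separate cultures. The p-values thus rest on the spread between the libraries at hand, and that spread may be technical.

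DNA is wound around histones, and enzymes that write, remove or read marks on the histone tails set how open a stretch of chromatin is. Acetylation opens chromatin and is removed by the zinc-dependent deacetylases and, with NAD as a cofactor, by some of the sirtuins. Methyl groups are placed by KMT and SETD enzymes and taken off by KDM enzymes. PRC2 places the repressive mark H3K27me3, which CBX proteins of the Polycomb group bind, while CBX1, CBX3 and CBX5 are the heterochromatin protein HP1 and bind methylated H3K9. SWI/SNF complexes, also called BAF, use the ATPase SMARCA4 or SMARCA2 to slide or eject nucleosomes, and in nerve cells they exchange several subunits as precursors turn into neurons.

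The libraries held between 14644077 and 16886026 reads assigned to genes. DLX5 stood at 1582, 1569 and 1677 CPM (read counts scaled to a common library size with the TMM factors) in the DLX5 libraries, against 12.4, 12.3 and 13.8 CPM in the control libraries, so every library matched its label. Markers of the adrenergic neuroblastoma cell state were present, and all 8 fell, their summed level being 545 to 600 FPKM in the DLX5 libraries and 1404 to 1588 FPKM in the control libraries. Among 9 fibroblast genes 8 rose, with a sum of 766 to 788 FPKM in the DLX5 libraries and 222 to 228 FPKM in the control libraries. Most of this sum was COL3A1, with means of 638 FPKM in the DLX5 libraries and 159 FPKM in the control libraries, and PDGFRA did not pass. Of 6 epithelial genes 4 rose and 1 fell, with sums of 102 to 108 FPKM in the DLX5 libraries and 6.10 to 7.07 FPKM in the control libraries. Most of these sums was KRT18, with means of 96.0 FPKM in the DLX5 libraries and 4.46 FPKM in the control libraries. KRT19 fell and EPCAM did not pass. Of 6 blood and endothelial genes 4 could be tested and 1 rose. Their sums were 0.614 to 0.909 FPKM in the DLX5 libraries and 0.303 to 0.560 FPKM in the control libraries, with CD3E at 0 in every library and PTPRC at 0 in the DLX5 libraries. Of 8 proliferation genes 5 fell, namely PCNA, MCM2, MCM4, RRM2 and CDK1, and 2 rose, MKI67 and CCNB1. These 8 summed to 268 to 282 FPKM in the DLX5 libraries and 411 to 437 FPKM in the control libraries. The part of these shifts in the results below was not tested. Fewer cells of a type and less RNA per cell cannot be told apart in such bulk samples.

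All 80 genes passed the filter on low counts and could be tested. With edgeR's quasi-likelihood test, 25 were higher and 25 lower in the DLX5 libraries at an adjusted p under 0.05 (Benjamini-Hochberg over 17269 genes), and 30 did not pass. That is 62.5% of the 80, beside 58.6% of all tested genes, of which 29.8% were higher and 28.8% lower. The 80 are all protein-coding, and of the tested protein-coding genes 32.6% were higher and 31.3% lower. At a level of at least 10 CPM, 31.6% of tested genes were higher and 35.9% lower. Of the 74 of the 80 at that level, 29.7% were higher and 29.7% lower. The library values did not overlap between the groups for 51 of the 80, beside 62.5% of all tested genes. The shares called are thus near the background, and the changes were of modest size. The counts by class below are to be read beside these same shares. At a change of at least 1.5-fold, 5 of the 80 were higher and 3 lower, or 8 in all, beside 29.0% of all tested genes. At a change of at least 2-fold only HDAC10 was left, beside 16.4% of all tested genes. The median size of the log2 fold change was 0.24 over the 80 genes, 0.36 over all tested genes and 0.34 over tested protein-coding genes. Among genes of at least 10 CPM it was 0.20 over 74 of the 80 and 0.30 over 10760 tested genes. The signed median was -0.03 over the 80 and 0.00 over all tested genes.

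**Figure D1:**
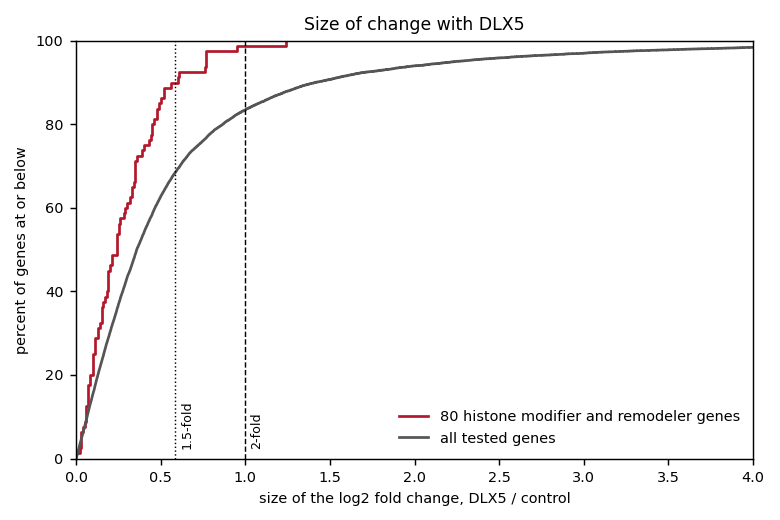
Cumulative percent of genes (vertical axis) by the size of their log2 fold change, DLX5 over control (horizontal axis), for the 80 genes and for all 17269 tested genes. The curve of the 80 genes lies to the left, with a median of 0.24 against 0.36, and HDAC10 is the gene past the 2-fold line.

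The split by direction depended on the scaling. With library totals and no scaling factors, which move the median of all tested genes by -0.07 on the log2 scale, 16 of the 80 were higher and 31 lower. When each library was left out in turn, 35 of the 50 called genes passed in all 6 fits, 16 of the 25 higher and 19 of the 25 lower. Over all tested genes, 46.6% were called and stayed so in all 6 fits.

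**Figure D2:**
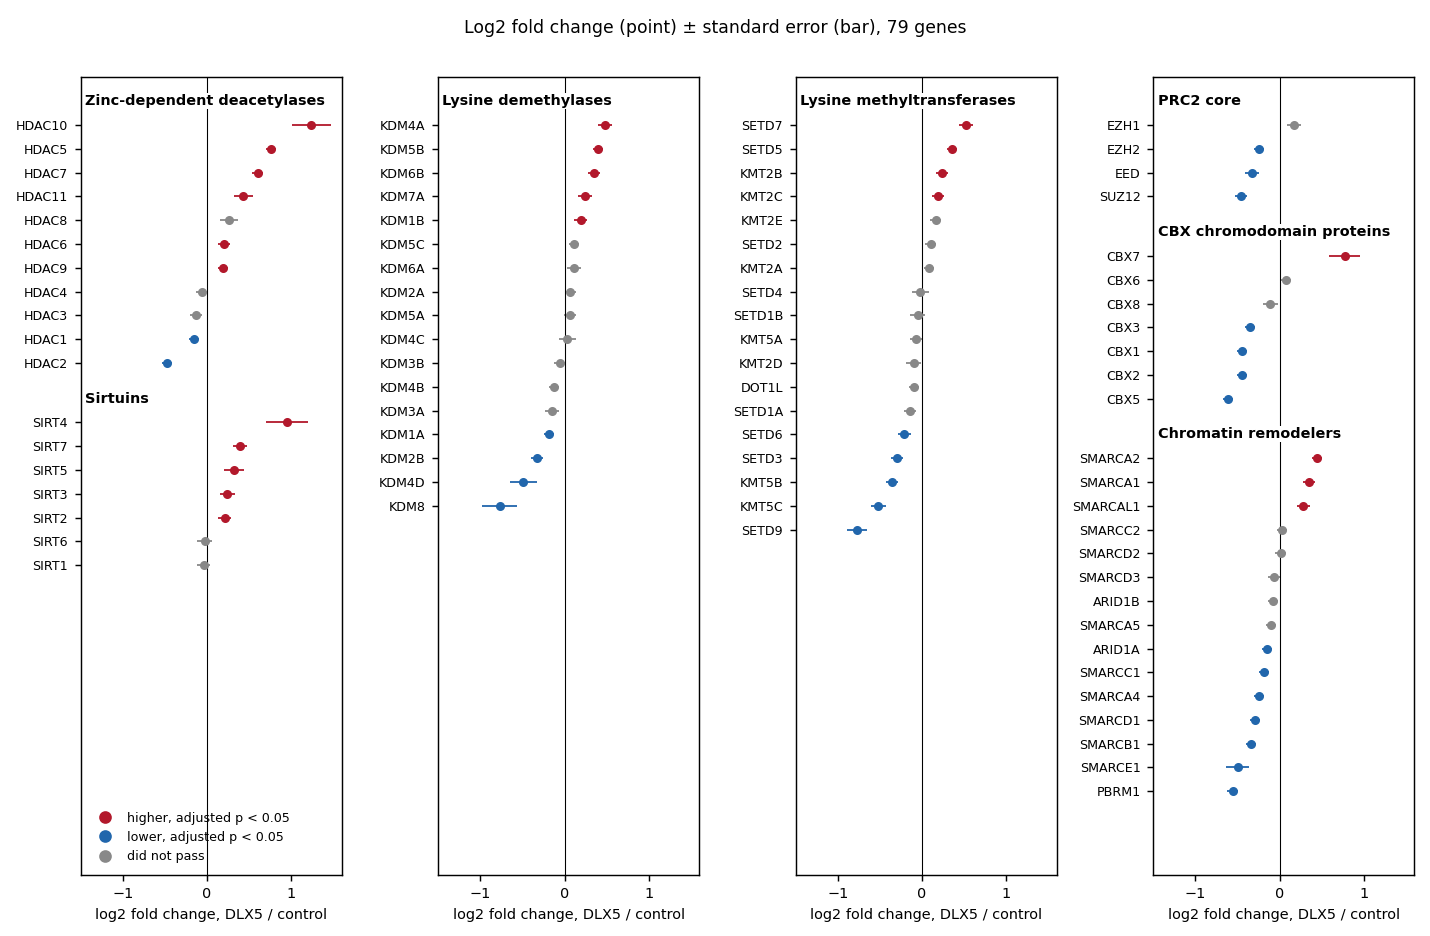
Log2 fold change, DLX5 over control (point), with its standard error (bar) for 79 of the 80 genes, by class and in falling order. The values run from -0.77 for KDM8 and SETD9 to 1.24 for HDAC10; 24 of the genes shown are marked higher, 25 lower and 30 as not passed.

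Of the 4 PRC2 genes, EZH2, EED and SUZ12 fell with DLX5 and EZH1 did not pass, beside 28.8% lower over all tested genes. EZH2 is the main methyltransferase of the complex, SUZ12 and EED are the subunits it needs for activity, and EZH1 is the weaker enzyme that can take the place of EZH2, mostly in cells that no longer divide. The 3 genes that fell kept their call in all 6 fits with a library left out. The summed level of the 4 genes was 36.2 to 37.4 FPKM (fragments scaled by gene length and library size, as deposited) in the DLX5 libraries and 42.8 to 46.0 FPKM in the control libraries. The 8 proliferation genes, 5 of which fell and 2 of which rose, had a median log2 fold change of -0.68, and their part in the values of PRC2 and HP1 genes was not tested.

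EZH2 (ENSG00000106462, chromosome 7, 148807383 to 148884321, minus strand, GRCh38) stood at 92.7, 92.3 and 92.7 CPM in the DLX5 libraries, against 107, 114 and 109 CPM in the control libraries. Every DLX5 library lay below every control library. The log2 fold change was -0.25 ± 0.06 (standard error, SE; edgeR, adjusted p = 0.000956). SUZ12 (ENSG00000178691, chromosome 17, 31937018 to 32001045, plus strand) had 59.5, 58.8 and 51.2 CPM in the DLX5 libraries, against 71.0, 83.9 and 77.4 CPM in the control libraries. The groups were apart, the third DLX5 library being the lowest. Its log2 fold change was -0.46 ± 0.07 (SE, adjusted p = 9.14e-06). The pseudogene SUZ12P1 held 2005 counts over the 6 libraries, or 31.0% as many as SUZ12, and how reads that match both were counted is not stated. EED (ENSG00000074266, chromosome 11, 86244544 to 86278813, plus strand), which binds the mark that PRC2 places, had 22.9, 24.0 and 22.6 CPM in the DLX5 libraries, against 29.1, 30.0 and 27.8 CPM in the control libraries. The groups did not overlap, and the log2 fold change was -0.33 ± 0.08 (SE, adjusted p = 0.00154). EZH1 stood at 34.4, 32.7 and 35.4 CPM in the DLX5 libraries, against 30.9, 28.7 and 31.7 CPM in the control libraries, a log2 fold change of 0.17 ± 0.08 that did not pass (adjusted p = 0.0721). Its groups did not overlap.

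The promoters of EZH2 and SUZ12, and of the HP1 gene CBX3 described next, are shown because they are the lower genes whose window holds letters bound by E2F, the factor family that drives genes of DNA replication. Each window runs from 250 bases before to 50 bases after the RefSeq start site (GRCh38.p14), 5′ to 3′ on the gene's strand, and the capitals mark the E2F letters. The windows are chr7:148884242-148884541 on the minus strand for EZH2, chr17:31936757-31937056 on the plus strand for SUZ12 and chr7:26201193-26201492 on the plus strand for CBX3.
EZH2: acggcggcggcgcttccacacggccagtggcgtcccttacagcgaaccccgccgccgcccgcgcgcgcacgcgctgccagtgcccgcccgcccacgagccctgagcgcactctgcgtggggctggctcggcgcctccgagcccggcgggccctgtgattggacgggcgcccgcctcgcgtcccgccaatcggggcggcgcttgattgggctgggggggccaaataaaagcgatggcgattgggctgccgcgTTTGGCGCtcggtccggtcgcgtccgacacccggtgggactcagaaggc
SUZ12: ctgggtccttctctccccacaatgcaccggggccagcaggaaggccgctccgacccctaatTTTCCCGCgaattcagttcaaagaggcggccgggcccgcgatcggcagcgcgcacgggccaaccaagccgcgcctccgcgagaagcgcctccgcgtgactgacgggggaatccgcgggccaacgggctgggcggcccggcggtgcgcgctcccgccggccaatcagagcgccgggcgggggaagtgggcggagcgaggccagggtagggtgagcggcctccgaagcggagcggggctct
CBX3: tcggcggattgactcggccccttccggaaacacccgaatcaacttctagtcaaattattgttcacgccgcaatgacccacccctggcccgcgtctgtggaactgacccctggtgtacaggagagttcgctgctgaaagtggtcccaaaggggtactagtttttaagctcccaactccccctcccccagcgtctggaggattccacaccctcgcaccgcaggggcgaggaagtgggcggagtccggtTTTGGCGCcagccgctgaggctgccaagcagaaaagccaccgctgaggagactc
The letters searched on both strands were TTTCCCGC, TTTGGCGC, TTTCGCGC and TTTGCCGC. RefSeq windows were matched to 71 of the 80 genes. One of these words stood in 6 of the 71, or 8.45%, in 5.15% of the 11495 windows of tested genes and in 3.33% of all 27305 windows. By call it was in 1 of 22 higher genes, 3 of 23 lower genes and 2 of 26 genes that did not pass. The higher gene was KDM1B, whose window held 2 matches, and those that did not pass were EZH1 and SIRT6. The E-box CACGTG was in 9 of the 71 windows, 12.7% beside 9.77% of the windows of tested genes, and these were 0 of the 22 higher, 3 of the 23 lower and 6 of the 26 that did not pass. The homeobox words TAATTA and TAATTG, of the kind DLX proteins bind, were in 2 and in 4 of the 71 windows, 2.82% and 5.63%, beside 2.05% and 4.25% of the windows of tested genes. TAATTA was in the window of no gene called in either direction. A match is a description of the letters in the window and says nothing of binding.

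The 3 genes of HP1 all fell, beside 28.8% lower over all tested genes. Their summed level was 170 to 181 FPKM in the DLX5 libraries and 231 to 242 FPKM in the control libraries. CBX5, or HP1 alpha (ENSG00000094916, chromosome 12, 54230940 to 54280133, minus strand), had 325, 349 and 310 CPM in the DLX5 libraries, against 492, 496 and 516 CPM in the control libraries. This was the largest fall among the 8 CBX genes, with a log2 fold change of -0.61 ± 0.06 (SE, adjusted p = 1.51e-09) and no overlap of the groups. CBX1, or HP1 beta (ENSG00000108468, chromosome 17, 48070052 to 48101521, minus strand), had 276, 290 and 288 CPM in the DLX5 libraries, against 388, 385 and 393 CPM in the control libraries. All DLX5 libraries were lower, and the log2 fold change was -0.45 ± 0.06 (SE, adjusted p = 1.45e-07). CBX3, or HP1 gamma, was chosen after its values were seen to complete the family. It had 283, 302 and 278 CPM in the DLX5 libraries, against 344, 400 and 360 CPM in the control libraries, a log2 fold change of -0.35 ± 0.06 (SE, adjusted p = 2.67e-05). The opposite-strand gene HNRNPA2B1, which overlaps CBX3, held 345% as many counts and had a log2 fold change of -0.11 ± 0.06 that did not pass (adjusted p = 0.104). Its exons cover 7.93% of the exon bases of CBX3.

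The Polycomb CBX genes, which encode alternative chromodomain subunits of Polycomb repressive complex 1 (PRC1), moved in different directions. CBX2 fell, CBX7 rose, and CBX6 and CBX8 did not pass. CBX2 (ENSG00000173894, chromosome 17, 79778132 to 79787983, plus strand) had 165, 162 and 168 CPM in the DLX5 libraries, against 237, 216 and 224 CPM in the control libraries. The groups were well apart, with a log2 fold change of -0.45 ± 0.06 (SE, adjusted p = 2.59e-07). CBX7 (ENSG00000100307, chromosome 22, 39120167 to 39152674, minus strand) was scarce, with 6.26, 4.78 and 7.12 CPM in the DLX5 libraries, against 3.48, 4.02 and 3.17 CPM in the control libraries. It rose by a log2 fold change of 0.77 ± 0.18 (SE, adjusted p = 0.000808), without overlap of the groups. Exons of other genes cover 21.6% of the exon bases of CBX7, mostly those of AL031846.2 on the opposite strand (17.9%). AL031846.2 held 14.8% as many counts, with a log2 fold change of 0.44 ± 0.39 that did not pass (SE, adjusted p = 0.344). Its part in the CBX7 value was not tested. Per length, CBX2 remained far above CBX7 in both groups, at 28.7 against 0.804 FPKM in the DLX5 libraries and 39.4 against 0.473 FPKM in the control libraries. CBX6 had a log2 fold change of 0.07 ± 0.07 (SE, adjusted p = 0.44). CBX8 had a log2 fold change of -0.11 ± 0.09 that did not pass (adjusted p = 0.329).

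**Figure D3:**
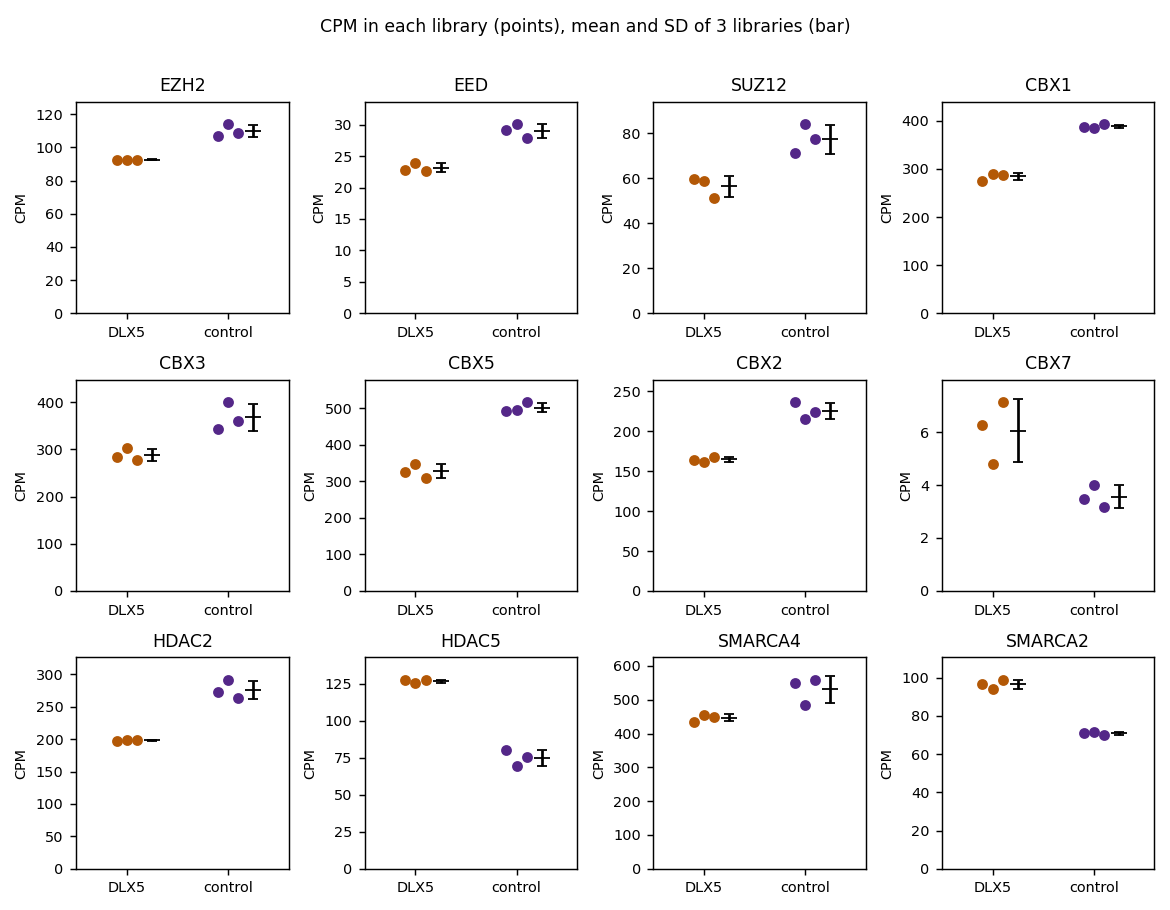
CPM (vertical axis, from 0) of 12 of the genes in each DLX5 and control library (points), with the mean and the SD of 3 libraries (bar). EZH2, EED, SUZ12, CBX1, CBX3, CBX5, CBX2, HDAC2 and SMARCA4 are lower in every DLX5 library, and CBX7, HDAC5 and SMARCA2 are higher in every DLX5 library.

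Other proteins that work with PRC2 and PRC1 showed no common direction. Of 7 PRC2 partners 3 rose, 2 fell and 2 did not pass. Their median log2 fold change was -0.08, beside 0.00 over all tested genes. AEBP2, which helps PRC2 bind nucleosomes, averaged 37.0 ± 2.42 CPM in the DLX5 libraries, against 25.4 ± 2.15 CPM in the control libraries (SD, n = 3 each), a log2 fold change of 0.54 ± 0.09 (SE, edgeR adjusted p = 5.04e-06). RBBP4, the histone-binding chaperone that several complexes share, fell by 0.42 ± 0.06 on the log2 scale (SE, adjusted p = 4.59e-07), while its paralog RBBP7, chosen after its values were seen, rose by 0.28 ± 0.06 (SE, adjusted p = 0.000155). Of 14 PRC1 partners 4 rose, 5 fell and 5 did not pass, the median being -0.01. The largest falls were those of BCOR, a corepressor of the variant PRC1 complex with PCGF1, and of PCGF1 itself. BCOR stood at 144, 139 and 142 CPM in the DLX5 libraries, against 243, 234 and 260 CPM in the control libraries, a log2 fold change of -0.80 ± 0.06 (SE, adjusted p = 9.23e-12). PCGF1 had a log2 fold change of -0.71 ± 0.11 (SE, adjusted p = 1.98e-06). RNF2, RING1 and BMI1 were chosen after their values were seen. RNF2, a catalytic subunit, and the Polycomb factor BMI1 did not pass, with log2 fold changes of 0.02 ± 0.09 and -0.03 ± 0.08. RING1, also a catalytic subunit, rose by 0.34 ± 0.08 (SE, adjusted p = 0.000588).

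Among the 12 SWI/SNF subunit genes SMARCA2 rose, 7 fell and 4 did not pass, and the median log2 fold change was -0.17. Beside this, 29.8% of all tested genes were higher and 28.8% lower. Their summed level was 195 to 199 FPKM in the DLX5 libraries and 211 to 227 FPKM in the control libraries. The 7 that fell were PBRM1, SMARCE1, SMARCB1, SMARCD1, SMARCA4, SMARCC1 and ARID1A. PBRM1 (ENSG00000163939, chromosome 3, 52545352 to 52685917, minus strand), the bromodomain subunit that marks the PBAF form of the complex, had 96.2, 101 and 95.0 CPM in the DLX5 libraries, against 144, 146 and 142 CPM in the control libraries. Each DLX5 library lay well below each control library, with a log2 fold change of -0.56 ± 0.06 (SE, adjusted p = 7.41e-09). GNL3, a gene on the opposite strand that overlaps PBRM1, held 85.8% as many counts and also fell, by 0.48 ± 0.07 on the log2 scale (SE, adjusted p = 1.02e-06). Exons of all other genes cover 1.51% of the exon bases of PBRM1. The part of GNL3 in the PBRM1 value was not tested.

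The ATPase genes went opposite ways. SMARCA2 (ENSG00000080503, chromosome 9, 1980290 to 2193624, plus strand) had 96.6, 94.1 and 98.7 CPM in the DLX5 libraries, against 71.2, 71.5 and 69.9 CPM in the control libraries, a log2 fold change of 0.44 ± 0.06 (SE, adjusted p = 7.51e-07). SMARCA4 (ENSG00000127616, chromosome 19, 10960825 to 11079426, plus strand), chosen after its values were seen as the partner in that pair, had 434, 455 and 450 CPM in the DLX5 libraries, against 550, 485 and 558 CPM in the control libraries. The second control library was the lowest of the control libraries but still above all DLX5 libraries, and the log2 fold change was -0.25 ± 0.06 (SE, adjusted p = 0.00112). SMARCA2 made up 15.9%, 14.9% and 15.7% of the summed FPKM of the pair in the DLX5 libraries and 9.90%, 11.1% and 9.61% in the control libraries, so SMARCA4 stayed the more abundant transcript.

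SMARCE1, which encodes a DNA-binding subunit, was counted at 7.22, 8.78 and 6.70 CPM in the DLX5 libraries, against 9.11, 11.6 and 11.3 CPM in the control libraries, a log2 fold change of -0.50 ± 0.14 (SE, adjusted p = 0.00339). Its level of 0.402 FPKM in the DLX5 libraries and 0.566 FPKM in the control libraries was far below that of every other SWI/SNF subunit of the 12, the next being ARID1B at 3.47 and 3.67 FPKM. In the annotation, 19.8% of the exon bases of SMARCE1 lie on the same strand within exons of AC073508.2, which had 0 counts in all libraries. How reads that fall on both genes were counted is not stated, and the part of that overlap in the low level was not tested. With limma on log2(FPKM + 1) the fall of SMARCE1 did not pass (adjusted p = 0.0548), nor with log2(FPKM + 0.1) (adjusted p = 0.0692).

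The other subunits that fell were chosen after their values were seen. SMARCB1, a core subunit, and SMARCD1 had log2 fold changes of -0.34 ± 0.06 (SE, adjusted p = 1.95e-05) and -0.29 ± 0.06 (SE, adjusted p = 0.000215), and both kept their call in all 6 fits with a library left out. SMARCC1, a scaffold subunit, had a log2 fold change of -0.19 ± 0.06 and an adjusted p of 0.00775, but 0.0536 without DLX5 replicate 1 and 0.0733 without DLX5 replicate 3. ARID1A, the DNA-binding subunit of canonical BAF, had -0.15 ± 0.06 (SE, adjusted p = 0.0376). Its groups overlapped, and only the fit without control replicate 2 kept the call, while the fits without DLX5 replicate 1, 2 or 3 or control replicate 1 or 3 gave adjusted p values from 0.0737 to 0.172. SMARCD2 was the gene furthest from a call among the remodelers, with 124, 114 and 116 CPM in the DLX5 libraries, against 124, 112 and 116 CPM in the control libraries, and a log2 fold change of 0.01 ± 0.06 (SE, adjusted p = 0.866). SMARCC2, SMARCD3 and ARID1B had log2 fold changes between -0.08 and 0.03 and did not pass, except that ARID1B was called lower without control replicate 2 (adjusted p = 0.0328).

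The 3 remodeler genes outside SWI/SNF were SMARCA1 and SMARCA5, the ATPases of the ISWI family that spaces nucleosomes, and SMARCAL1, a DNA annealing helicase of replication forks. SMARCA1 (ENSG00000102038, chromosome X, 129446501 to 129523500, minus strand) had 136, 148 and 135 CPM in the DLX5 libraries, against 100, 117 and 112 CPM in the control libraries, a log2 fold change of 0.35 ± 0.07 (SE, adjusted p = 5.75e-05). SMARCAL1 rose by 0.28 ± 0.08 (SE, adjusted p = 0.0054). SMARCA5 had a log2 fold change of -0.10 ± 0.06 and did not pass (adjusted p = 0.18).

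Subunits that SWI/SNF complexes take up in neurons, a list outside the 80 genes, fell in 4 of 4 cases with a median log2 fold change of -1.13. Among all tested genes 28.8% were lower. ACTL6B, the neuronal actin-like subunit, had 18.8, 18.4 and 21.2 CPM in the DLX5 libraries, against 44.2, 43.3 and 42.7 CPM in the control libraries, a log2 fold change of -1.16 ± 0.08 (SE, edgeR adjusted p = 3.26e-12). DPF3, a histone-reading subunit, was scarce, at 1.02, 1.55 and 0.852 CPM in the DLX5 libraries, against 2.81, 2.28 and 3.11 CPM in the control libraries, a log2 fold change of -1.26 ± 0.29 (SE, adjusted p = 0.000477). DPF1, chosen after its values were seen, fell by 1.10 ± 0.09 (SE, adjusted p = 7.48e-11) and SS18L1, chosen likewise, by 0.50 ± 0.07 (SE, adjusted p = 8.69e-07). Their precursor counterparts did not move as one group, with 1 higher, 2 lower and 1 that did not pass. ACTL6A, the counterpart of ACTL6B, fell by 0.64 ± 0.07 on the log2 scale (SE, adjusted p = 2.22e-08), and DPF2 rose by 0.32 ± 0.07 (SE, adjusted p = 0.000215). Of 9 other SWI/SNF genes that could be tested 2 rose, 4 fell and 3 did not pass. Among them BCL11A, a zinc finger protein found with the complex, had 11.9, 11.1 and 12.2 CPM in the DLX5 libraries, against 5.70, 4.74 and 4.32 CPM in the control libraries, a log2 fold change of 1.26 ± 0.14 (SE, adjusted p = 1.9e-08). BCL7A fell by 0.59 ± 0.07 on the log2 scale (SE, adjusted p = 2.3e-08). BCL11B did not pass the filter on low counts. The 8 adrenergic neuroblastoma markers, which also fell, had a median log2 fold change of -1.53, and their part in the fall of the neuronal subunits was not tested.

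**Figure D4:**
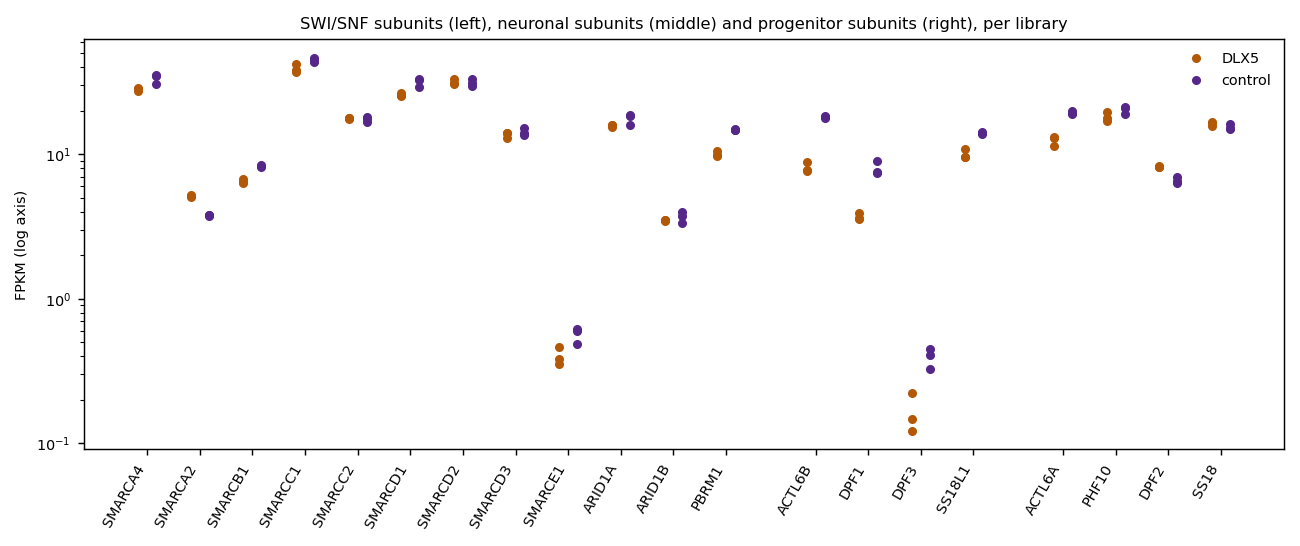
FPKM (vertical log axis) of 12 SWI/SNF subunit genes, 4 neuronal subunits and 4 precursor subunits in each DLX5 and control library (points). ACTL6B, DPF1, DPF3 and SS18L1 are lower in all 3 DLX5 libraries, SMARCA2 is higher in all 3, and SMARCE1 lies near 0.402 FPKM in the DLX5 libraries and 0.566 FPKM in the control libraries.

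Of the 11 zinc-dependent deacetylases 6 rose, 2 fell and 3 did not pass (median log2 fold change 0.20), or 4 higher and 3 lower with library totals and no scaling factors. The shares over all tested genes in the main fit were 29.8% higher and 28.8% lower. In class IIa, whose members carry signals between cytoplasm and nucleus and bind MEF2 factors, HDAC5, HDAC7 and HDAC9 rose and HDAC4 did not pass. In class I, the nuclear enzymes with the main deacetylase activity, HDAC2 and HDAC1 fell and HDAC3 and HDAC8 did not pass. The summed level of the 4 class IIa genes was 47.3 to 48.3 FPKM in the DLX5 libraries and 33.5 to 35.3 FPKM in the control libraries, and that of the 4 class I genes was 44.3 to 46.8 FPKM in the DLX5 libraries and 52.8 to 55.4 FPKM in the control libraries.

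HDAC5 (ENSG00000108840, chromosome 17, 44076746 to 44123702, minus strand) had 127, 125 and 127 CPM in the DLX5 libraries, against 80.2, 69.3 and 75.3 CPM in the control libraries. The DLX5 libraries lay close together and far above the control libraries, with a log2 fold change of 0.76 ± 0.06, or 1.69-fold (SE, adjusted p = 9.8e-11). HDAC7 (ENSG00000061273, chromosome 12, 47782722 to 47833132, minus strand) had 146, 135 and 156 CPM in the DLX5 libraries, against 101, 89.5 and 97.7 CPM in the control libraries, a log2 fold change of 0.60 ± 0.07 (SE, adjusted p = 1.35e-08). HDAC4 had 41.6, 38.0 and 43.0 CPM in the DLX5 libraries, against 43.2, 42.8 and 42.1 CPM in the control libraries, which overlap, and a log2 fold change of -0.06 ± 0.07 (SE, adjusted p = 0.49). HDAC9, chosen after its values were seen, had a log2 fold change of 0.19 ± 0.06 (SE, adjusted p = 0.00867) and did not pass without control replicate 1 (adjusted p = 0.0609).

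HDAC2 (ENSG00000196591, chromosome 6, 113933028 to 114011308, minus strand) had 198, 199 and 198 CPM in the DLX5 libraries, against 273, 291 and 263 CPM in the control libraries. It was lower in every DLX5 library, with a log2 fold change of -0.48 ± 0.06 (SE, adjusted p = 1.04e-07). HDAC1, its close paralog and chosen for that reason after its values were seen, had 77.9, 70.9 and 77.3 CPM in the DLX5 libraries, against 85.6, 83.3 and 82.1 CPM in the control libraries. Its log2 fold change of -0.15 ± 0.06 barely passed (SE, adjusted p = 0.0468), and it did not pass in any of the 6 fits that left out DLX5 replicate 1, 2 or 3 or control replicate 1, 2 or 3, with adjusted p values from 0.0562 to 0.21. The share of HDAC1 in the summed FPKM of the pair was 59.7% ± 1.31 in the DLX5 libraries and 54.2% ± 1.29 in the control libraries (SD, n = 3 each). FPKM divides by all annotated exon bases, 3963 for HDAC1 and 15461 for HDAC2, while by CPM HDAC2 was the higher gene in every library.

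HDAC10, a class IIb enzyme known as a polyamine deacetylase, showed the largest change of the 80 genes at a low level. It had 4.09, 3.49 and 3.84 CPM in the DLX5 libraries, against 1.61, 1.68 and 1.52 CPM in the control libraries, from 185 counts in all DLX5 libraries and 77 counts in all control libraries. The log2 fold change was 1.24 ± 0.23 (SE, adjusted p = 3.44e-05). On the same strand, exons of MAPK12 cover 55.8% of its exon bases. MAPK12 held 7848 counts over the 6 libraries, beside 262 for HDAC10, and also rose, by a log2 fold change of 0.50 ± 0.08 (SE, adjusted p = 2.91e-06), so the value of HDAC10 is uncertain where the counting could split reads between both genes. HDAC11, the single class IV enzyme and chosen after its values were seen, rose by 0.43 ± 0.11 (SE, adjusted p = 0.00144). The tubulin deacetylase HDAC6, chosen likewise, had a log2 fold change of 0.20 ± 0.07 (SE, adjusted p = 0.0148) and did not pass without DLX5 replicate 3 (adjusted p = 0.118) or control replicate 3 (0.0664). HDAC8 had a log2 fold change of 0.26 ± 0.11 that did not pass (adjusted p = 0.0518), but was called higher in the fits without DLX5 replicate 2, DLX5 replicate 3 or control replicate 2, its adjusted p over the 6 fits running from 0.0266 to 0.311.

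Of the 7 sirtuins 5 rose, and SIRT6 and SIRT1 did not pass, beside 29.8% higher and 28.8% lower over all tested genes. The median log2 fold change was 0.24. The count of higher sirtuins was 3 with upper-quartile factors and 2 with library totals and no scaling factors, where SIRT2, SIRT3 and SIRT5 lost their call. SIRT4 (ENSG00000089163, chromosome 12, 120302316 to 120313249, plus strand), a mitochondrial sirtuin, had 3.31, 3.03 and 2.92 CPM in the DLX5 libraries, against 1.07, 1.86 and 1.83 CPM in the control libraries. Its groups were apart, and the log2 fold change was 0.95 ± 0.25 (SE, adjusted p = 0.00215) on 150 counts in the DLX5 libraries and 77 counts in the control libraries. SIRT7 (ENSG00000187531, chromosome 17, 81911939 to 81921323, minus strand), a nucleolar H3K18 deacetylase, had 44.8, 40.3 and 46.2 CPM in the DLX5 libraries, against 36.9, 32.2 and 31.1 CPM in the control libraries, a log2 fold change of 0.39 ± 0.08 (SE, adjusted p = 0.000206). MAFG overlaps it and held 294% as many counts, with a log2 fold change of 0.05 ± 0.06 that did not pass (adjusted p = 0.534). Exons of MAFG cover 1.71% of the exon bases of SIRT7.

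The mitochondrial sirtuins SIRT5 and SIRT3 and the cytoplasmic SIRT2 had smaller changes, whose calls were lost in some fits with a library left out. SIRT5, which removes succinyl groups, had 14.2, 13.6 and 16.1 CPM in the DLX5 libraries, against 12.9, 11.99 and 10.4 CPM in the control libraries. Its log2 fold change of 0.32 ± 0.12 (SE, adjusted p = 0.0217) did not pass without DLX5 replicate 3 (adjusted p = 0.125) or control replicate 3 (0.122). SIRT2 had 30.0, 28.7 and 33.0 CPM in the DLX5 libraries, against 27.6, 26.3 and 25.2 CPM in the control libraries. Its log2 fold change of 0.21 ± 0.08 (SE, adjusted p = 0.0315) did not pass without DLX5 replicate 1 (adjusted p = 0.0556), DLX5 replicate 3 (0.18), control replicate 2 (0.0664) or control replicate 3 (0.119), nor with DESeq2 (0.0565). SIRT3, chosen after its values were seen, had a log2 fold change of 0.24 ± 0.09 (SE, adjusted p = 0.0283), overlapping groups and no call without DLX5 replicate 1, DLX5 replicate 3 or control replicate 2. SIRT6 was furthest from a call, with 28.8, 27.5 and 32.9 CPM in the DLX5 libraries, against 34.7, 29.7 and 26.7 CPM in the control libraries, and a log2 fold change of -0.03 ± 0.09 (SE, adjusted p = 0.808). SIRT1 had a log2 fold change of -0.04 ± 0.08 (SE, adjusted p = 0.718).

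Of the 17 lysine demethylases 5 rose, 4 fell and 8 did not pass (median log2 fold change 0.06), or 3 higher and 6 lower with library totals and no scaling factors. KDM5B (ENSG00000117139, chromosome 1, 202724495 to 202809470, minus strand), which removes methyl groups from H3K4, had 260, 264 and 261 CPM in the DLX5 libraries, against 193, 200 and 202 CPM in the control libraries. It was higher in every DLX5 library, with a log2 fold change of 0.40 ± 0.06 (SE, adjusted p = 1e-06). KDM4A (ENSG00000066135, chromosome 1, 43650158 to 43705515, plus strand), which acts on H3K9 and H3K36, had 43.1, 42.9 and 39.6 CPM in the DLX5 libraries, against 28.0, 28.4 and 33.4 CPM in the control libraries, a log2 fold change of 0.48 ± 0.08 (SE, adjusted p = 1.65e-05). Exons of other genes cover 48.5% of its exon bases, mostly those of AL451062.3 on the same strand (40.2%), which had 0 counts. Its relatives KDM4B and KDM4C did not pass, KDM4C with 16.97, 19.4 and 17.1 CPM in the DLX5 libraries, against 16.0, 18.6 and 17.5 CPM in the control libraries, and a log2 fold change of 0.03 ± 0.10 (SE, adjusted p = 0.789).

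KDM4D and KDM8 fell at low levels. KDM8 (ENSG00000155666, chromosome 16, 27203495 to 27221768, plus strand), whose protein is also known as JMJD5, had 2.77, 2.07 and 2.56 CPM in the DLX5 libraries, against 4.42, 4.44 and 3.78 CPM in the control libraries, a log2 fold change of -0.77 ± 0.21 (SE, adjusted p = 0.0024) on 120 counts in the DLX5 libraries and 202 counts in the control libraries. KDM4D (ENSG00000186280, chromosome 11, 94973681 to 94999518, plus strand) had 5.11, 6.20 and 4.44 CPM in the DLX5 libraries, against 6.50, 8.45 and 7.06 CPM in the control libraries. Its groups came close without overlap, and its log2 fold change of -0.49 ± 0.16 (SE, adjusted p = 0.0117) did not pass without DLX5 replicate 3 (adjusted p = 0.0731) or control replicate 2 (0.0761).

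The remaining demethylases with a call were chosen after their values were seen. KDM2B, which brings a variant PRC1 complex to CpG islands, had a log2 fold change of -0.33 ± 0.07 (SE, adjusted p = 0.000163). KDM6B, an H3K27 demethylase, rose by 0.35 ± 0.07 (SE, adjusted p = 8.17e-05), and its paralog KDM6A did not pass at 0.11 ± 0.08 (SE, adjusted p = 0.256). KDM1A, also called LSD1 and a target of drugs in neuroblastoma research, had 297, 301 and 283 CPM in the DLX5 libraries, against 330, 331 and 339 CPM in the control libraries. Its log2 fold change of -0.18 ± 0.06 (SE, adjusted p = 0.00745) did not pass without DLX5 replicate 3 (adjusted p = 0.0652). KDM7A at 0.24 ± 0.08 did not pass without DLX5 replicate 1 (adjusted p = 0.0509) or control replicate 1 (0.0643). KDM1B at 0.19 ± 0.08 passed only in the fit without DLX5 replicate 3 when a library was left out, and not without DLX5 replicate 1 or 2 or control replicate 1, 2 or 3.

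Among the demethylases without a call, KDM4B was called lower without control replicate 2 (adjusted p = 0.0139) and KDM3A lower without control replicate 1 (adjusted p = 0.0158).

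Of the 18 lysine methyltransferases outside PRC2 4 rose, 5 fell and 9 did not pass (median log2 fold change -0.06), or 3 higher and 7 lower with library totals and no scaling factors. SETD7 (ENSG00000145391, chromosome 4, 139495941 to 139606699, minus strand), which methylates H3K4 and many proteins that are not histones, had 75.9, 78.6 and 71.4 CPM in the DLX5 libraries, against 46.8, 51.3 and 59.7 CPM in the control libraries. The third control library was the highest of the controls but below all DLX5 libraries, and the log2 fold change was 0.52 ± 0.08 (SE, adjusted p = 2.69e-06). SETD9 (ENSG00000155542, chromosome 5, 56909260 to 56925532, plus strand) had 8.72, 8.65 and 9.19 CPM in the DLX5 libraries, against 13.9, 15.8 and 15.5 CPM in the control libraries, a log2 fold change of -0.77 ± 0.12 (SE, adjusted p = 2.56e-06). MIER3 overlaps it on the opposite strand, held 408% as many counts and also fell, by 0.37 ± 0.08 on the log2 scale (SE, adjusted p = 0.000357), and the part of its reads in the SETD9 value was not tested. Exons of all other genes cover 8.08% of the exon bases of SETD9.

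The paralogs KMT5B and KMT5C, which place the second and the third methyl group on lysine 20 of histone H4, both fell. KMT5C (ENSG00000133247, chromosome 19, 55339853 to 55348120, plus strand) had 35.2, 31.2 and 39.9 CPM in the DLX5 libraries, against 54.7, 46.1 and 51.5 CPM in the control libraries, a log2 fold change of -0.52 ± 0.09 (SE, adjusted p = 1.18e-05). KMT5B (ENSG00000110066, chromosome 11, 68154863 to 68213828, minus strand) had 35.5, 37.6 and 36.9 CPM in the DLX5 libraries, against 46.1, 48.8 and 46.5 CPM in the control libraries, a log2 fold change of -0.36 ± 0.07 (SE, adjusted p = 0.000129). Both kept the call in all 6 fits with a library left out. KMT5A, which places the first methyl group, had a log2 fold change of -0.07 ± 0.07 and did not pass (adjusted p = 0.387).

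Of the 5 KMT2 genes, also known as the MLL family, KMT2B and KMT2C rose and KMT2A, KMT2D and KMT2E did not pass. These and the genes in the rest of this paragraph other than SETD4 were chosen after their values were seen. KMT2B had 98.7, 93.4 and 96.1 CPM in the DLX5 libraries, against 87.0, 73.9 and 83.6 CPM in the control libraries, a log2 fold change of 0.24 ± 0.07 (SE, adjusted p = 0.00352). KMT2C at 0.19 ± 0.07 (SE, adjusted p = 0.0161) had overlapping groups and did not pass without DLX5 replicate 1 (adjusted p = 0.101) or control replicate 2 (0.109). KMT2D had 183, 154 and 170 CPM in the DLX5 libraries, against 184, 149 and 210 CPM in the control libraries, and the groups overlapped. It was called lower without control replicate 2 (adjusted p = 0.0135), as were DOT1L (0.0307) and SETD1A (0.00904), and KMT2E was called higher without control replicate 3 (adjusted p = 0.00546). SETD5 and SETD3, an actin methyltransferase, had log2 fold changes of 0.35 ± 0.06 (SE, adjusted p = 1.83e-05) and -0.30 ± 0.07 (SE, adjusted p = 0.000805). SETD6 at -0.21 ± 0.08 (SE, adjusted p = 0.031) did not pass without DLX5 replicate 1 or 2 or control replicate 1 or 2. SETD4 was furthest from a call, with 21.3, 21.2 and 24.2 CPM in the DLX5 libraries, against 21.8, 26.1 and 19.5 CPM in the control libraries, and a log2 fold change of -0.02 ± 0.10 (SE, adjusted p = 0.909).

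The balance within 16 pairs of related genes was compared as the share of the first gene in the summed FPKM of the pair. FPKM divides by the length of all annotated exons, so the order within a pair can differ from that by CPM. In 14 of the 16 pairs the shares of the DLX5 libraries and of the control libraries did not overlap. The values of single genes did not overlap in 62.5% of all tested genes, and as no such percentage was computed for other pairs, the count is a description of these 16. An exact two-sided permutation test of 3 libraries against 3 cannot give a p under 0.1, which all 14 reached, and their p adjusted over the 16 pairs was 0.114, so no pair passed. The largest shift was in KDM4A, whose share with KDM4B was 56.1% ± 1.52 in the DLX5 libraries and 45.6% ± 2.18 in the control libraries (SD, n = 3 each), with the overlap of KDM4A exons given above. HDAC5 made up 54.4% ± 1.49 of its pair with HDAC9 in the DLX5 libraries and 44.6% ± 3.002 in the control libraries. SMARCA1 made up 60.8% ± 0.295 of its pair with SMARCA5 in the DLX5 libraries and 53.2% ± 1.04 in the control libraries. KDM5A made up 44.3% ± 1.29 of its pair with KDM5B in the DLX5 libraries and 50.2% ± 1.00 in the control libraries. By FPKM, KDM5B was the more abundant of the pair in 3 of 3 DLX5 libraries and in 2 of 3 control libraries. Its mean CPM was 262 in the DLX5 libraries and 199 in the control libraries, against 97.2 and 93.5 for KDM5A. The annotated exons span 25882 bases for KDM5B and 12091 for KDM5A. EZH2 remained the main transcript of its pair with EZH1, at 80.7% ± 0.608 in the DLX5 libraries and 84.8% ± 1.02 in the control libraries. The pairs KMT2A with KMT2B and SETD1A with SETD1B overlapped between the groups.

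**Figure D5:**
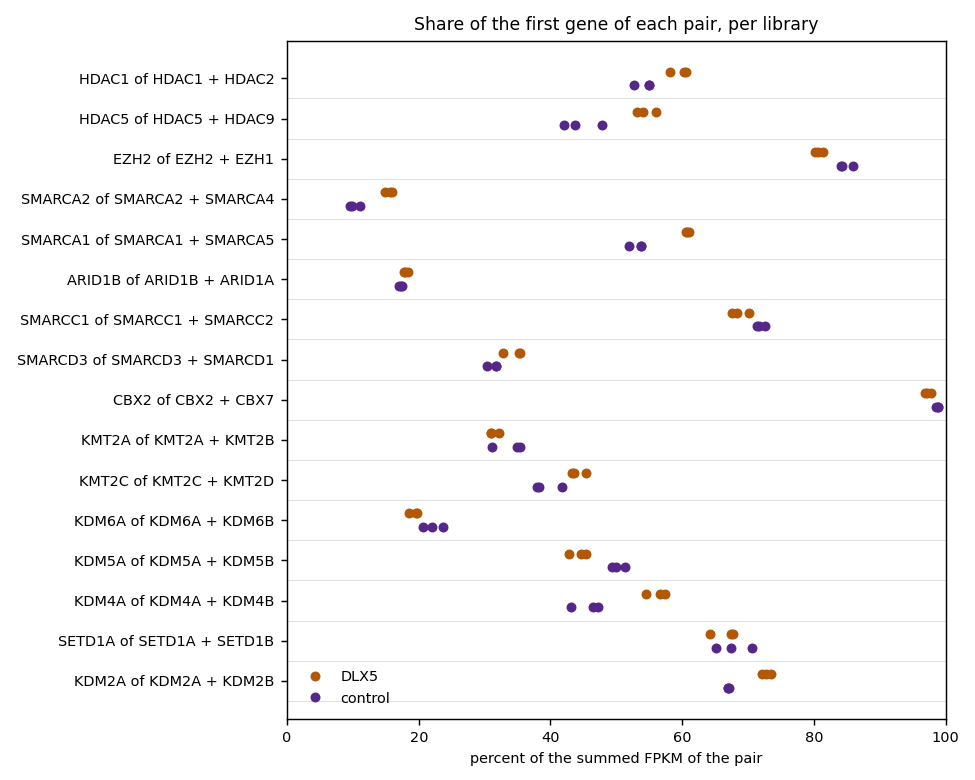
Share of the first gene of each of 16 pairs in the summed FPKM of the pair (horizontal axis, percent) in each DLX5 library (upper points of a row) and control library (lower points). The share of KDM4A with KDM4B is 56.1% in the DLX5 libraries and 45.6% in the control libraries, and the share of SMARCA2 is 15.5% in the DLX5 libraries and 10.2% in the control libraries.

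Partner proteins of these enzymes were read from further lists. Over all 99 partner genes tested, the PRC and SWI/SNF partners above included, 19 were higher, 46 lower and 34 did not pass. Their median log2 fold change was -0.12 and its median size 0.25. Beside them stand 29.8% higher and 28.8% lower over all tested genes. Of 10 acetyltransferases, which add the mark that deacetylases remove, 2 rose and 4 fell, among them KAT2B at 0.61 ± 0.14 (SE, edgeR adjusted p = 0.000482) and HAT1, which acetylates new histone H4, at -0.53 ± 0.08 (SE, adjusted p = 3.64e-06). Of 10 H3K9 and H3K36 methyltransferases 3 rose and 4 fell, and the paralogs SUV39H1 and SUV39H2, which place the mark that HP1 binds, had log2 fold changes of -0.48 ± 0.12 (SE, adjusted p = 0.00149) and -0.46 ± 0.11 (SE, adjusted p = 0.000867). Of 10 partners of the KMT2 enzymes in COMPASS complexes 4 fell and 6 did not pass. WDR5, the scaffold of these complexes, had 70.4, 65.3 and 64.8 CPM in the DLX5 libraries, against 107, 105 and 107 CPM in the control libraries, a log2 fold change of -0.67 ± 0.06 (SE, adjusted p = 7.27e-10), and RBBP5 fell by 0.30 ± 0.07 (SE, adjusted p = 0.0012).

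The lists of this paragraph are to be read beside 29.8% higher and 28.8% lower over all tested genes. Among tested genes of at least 10 CPM these shares were 31.6% and 35.9%. Of 18 partners of the deacetylases and of KDM1A in corepressor complexes 3 rose, 7 fell and 8 did not pass. RCOR2, a CoREST family protein that binds KDM1A, had 42.6, 42.0 and 42.2 CPM in the DLX5 libraries, against 80.2, 68.7 and 71.9 CPM in the control libraries, a log2 fold change of -0.80 ± 0.07 (SE, adjusted p = 3.77e-10). MBD2, a methyl-CpG binding subunit of the NuRD complex, rose by 0.79 ± 0.08 (SE, adjusted p = 4.13e-09), and its paralog MBD3, chosen after its values were seen, fell by 0.49 ± 0.06 (SE, adjusted p = 1.95e-07). Of 6 bromodomain readers 5 fell, with BRPF1 at -0.41 ± 0.08 (SE, adjusted p = 6.95e-05) and BRPF3 at -0.40 ± 0.07 (SE, adjusted p = 4.28e-05). Of 7 genes of DNA methylation 5 fell and 1 rose. UHRF1, which brings DNMT1 to replicated DNA, had 92.4, 91.3 and 97.6 CPM in the DLX5 libraries, against 176, 152 and 167 CPM in the control libraries, a log2 fold change of -0.81 ± 0.06 (SE, adjusted p = 2.55e-11). DNMT1, the maintenance methyltransferase, had 261, 253 and 257 CPM in the DLX5 libraries, against 364, 344 and 369 CPM in the control libraries, a log2 fold change of -0.48 ± 0.06 (SE, adjusted p = 5.35e-08).

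The 80 genes ranged in mean level over all 6 libraries from 0.484 FPKM for SMARCE1 to 108 FPKM for CBX1. The median level was 6.21 FPKM over the 25 higher genes, 12.4 FPKM over the 25 lower genes and 8.68 FPKM over the 30 others. Across the 80 genes, Spearman's rho between the log2 fold change and the level was -0.24 with FPKM and -0.21 with CPM, and 0.09 with gene length, given as descriptions across genes that share the same libraries. Across all 17269 tested genes the rho with CPM was -0.09 and with gene length 0.08. In the annotation 60 of the 80 genes overlap the span of another gene, introns included, and for 17 of them an overlapping gene held over 10% as many counts. Exons of other genes cover more than 10% of the exon bases of 13 of the 80. At SIRT3 and SETD6 the overlapping genes of the opposite strand, PSMD13 and CNOT1, held 405% and 705% as many counts and did not pass, with log2 fold changes of -0.11 ± 0.06 and 0.05 ± 0.06. NFKBIB, on the opposite strand of SIRT2, held 97.7% as many counts and fell by 0.28 ± 0.09 (SE, edgeR adjusted p = 0.0106) where SIRT2 rose. Exons of PSMD13 cover 6.07% of the exon bases of SIRT3, those of CNOT1 21.4% of SETD6 and those of NFKBIB 0.643% of SIRT2. HDAC10 and KDM4A are the genes of which more than 25% of the exon bases lie in exons of another gene.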

How the data were processed

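Per the labels' protocols, libraries were prepared with a NEBNext Ultra kit from Trizol-extracted total RNA. The authors deposited raw read counts of each gene, which are whole numbers. The submitters' processing notes name HISAT2 2.0.5, featureCounts 1.5.0-p3 and hg19, without settings, and whether the counting used strand is not given in the sources used; overlapping genes on opposite strands may share reads. The genes' coordinates and lengths are those of GENCODE release 29 on GRCh38 (80 of 80 lengths equal), and coordinates are given so. The deposited FPKM values were made by the authors from the same reads and were used for levels per length.

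Samples were grouped by their labels into 3 DLX5 and 3 control libraries, and none was left out. Counts were tested with edgeR 4.0.16 in R 4.3.3: filterByExpr left 17269 of 33755 genes with any count, libraries were scaled by TMM, and the quasi-likelihood test (two-sided, no covariate) set DLX5 against control. All adjusted p values outside the alternatives are from this edgeR test (Benjamini-Hochberg, all tested genes), and 0.05 was the threshold. The common biological coefficient of variation came to 6.17%. After a log2 fold change, ± is the standard error, |log2 fold change| divided by the root of the F statistic. A ± after CPM or percent is an SD over 3 libraries. Within groups, chi-square per degree of freedom between libraries was 1.93 to 3.79, above sampling noise, so no library was a copy of another.

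The genes, the partner lists and the marker lists were chosen with earlier results of these data known. The rule for named genes took, in each class, up to 4 called genes with the largest change and no overlap of the groups, all 4 of PRC2 and the gene with the largest adjusted p, and up to 2 called genes of each partner list. Alternatives were RLE and upper-quartile factors, library totals, DESeq2 1.42.0, limma-voom and limma on log2(FPKM + 1) and log2(FPKM + 0.1) (limma 3.58.1), no filter, at least 1 CPM in 3 libraries, a test of protein-coding genes alone, a replicate block, an adjusted p under 0.01, a change of at least 1.5-fold and each library left out. Paralog shares were compared with exact permutation tests (scipy 1.17.1). The edgeR test was checked on simulated counts in which few genes changed, evenly in both directions. That check does not bear on the scaling where most genes are called, as in these data. Values of a few genes are not reported here.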

Additional observations from a re-analysis of the deposited data

How the results depend on the processing

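Over the alternatives the count of the 80 genes that were higher ran from 16 to 27 and the count that were lower from 20 to 31, apart from the minimum change of 1.5-fold. Library totals with no scaling factors gave 16 higher and 31 lower, and the 1.5-fold minimum 5 higher and 3 lower among the 80, and 3 higher and 11 lower among the partner genes. Fits that left out a library gave 19 to 25 higher and 20 to 27 lower. Same-numbered libraries of the groups did not deviate together (r = 0.007, 0.094 and -0.04), so the numbers were not taken to pair them, and the fit with the replicate block gave 26 higher and 25 lower. Of the 50 called genes among the 80, 35 kept the call in all 6 fits with a library left out. Most named genes were picked in the main fit for a large change without overlap or for the largest adjusted p. How well their calls held was thus largely fixed by that choice. Of 1026 alternative log2 fold changes of 57 named genes, 1004 kept their side of the threshold. The other 22 kept the direction but did not pass, in SIRT5, SIRT2, KDM4D and SMARCE1. A reversal was counted only where the main fit or the alternative passed, and there were 0. Genes that passed in neither could change sign, such as SIRT6, from -0.12 to 0.07 over the fits with a library left out. Genes of low counts such as HDAC10, SIRT4 and KDM8 have the widest standard errors, and counting intervals would cover counting error only.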
